A study of Homo sapiens with 9 samples.

Results

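A set of 10 genes of proteoglycans and hyaluronan were followed in multicellular tumor spheroids (MTSs) of PC3 cells, a human prostate cancer line. They were listed by symbol, at a time when earlier results of these data were known, and they are HAPLN1, VCAN, HAS2, HAS3, BGN, DCN, OGN, PRELP, SDC1 and GPC1. All 10 were among the 27111 genes of the deposited tables, and 9 of them were among the 17108 genes that passed the expression filter, DCN being the exception. The spheroids came from 3 lines transduced with lentiviral pSIN vectors and selected with puromycin. They carried an empty vector (Empty), the long isoform of NF-YA (NF-YAl) or its short isoform (NF-YAs), with 3 libraries of total RNA per line from independent experiments in pooled MTSs. All lines shared the vector backbone, the selection and culture in medium with Matrigel, with 1 transduced line per construct. A difference between constructs thus cannot be told apart from one between lines, and differences between the isoforms are those between these lines. NF-YA is the subunit of the transcription factor NF-Y that contacts the CCAAT motif, and its isoforms differ by an exon of the transactivation domain.

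Hyaluronan is a long, unsulphated sugar polymer that hyaluronan synthases extrude through the plasma membrane, without a core protein. Proteoglycans are proteins with sulphated glycosaminoglycan chains, and they either stand on the cell surface, as syndecans and glypicans do, or lie in the matrix, as versican and the small leucine-rich family do. Versican binds hyaluronan through its globular end, and link proteins hold that complex together, while in tumors much of the versican, biglycan and decorin is known to come from stromal fibroblasts.

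Since NF-Y binds CCAAT, the sequence upstream of each gene was searched for these letters on both strands. RefSeq windows of GRCh38, reduced to the 250 bases before the start, were matched for 8 of the 10 genes, HAS2 and DCN being the others, and OGN and SDC1 had more than 1 window. Of these 10 windows 1 held CCAAT, that of PRELP, against 32.0% of the 35116 windows of all genes. In the plus strand window of PRELP the match, in capitals, lies 31 bases before the start. It is printed as the only match, at chr1:203475556-203475805 of GRCh38, plus strand, 5′ to 3′.
PRELP: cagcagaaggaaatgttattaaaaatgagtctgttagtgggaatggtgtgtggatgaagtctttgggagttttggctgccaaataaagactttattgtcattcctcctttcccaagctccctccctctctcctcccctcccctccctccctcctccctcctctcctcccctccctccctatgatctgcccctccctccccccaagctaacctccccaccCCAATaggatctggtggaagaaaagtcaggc
The windows of HAPLN1 and VCAN are shown because these genes lie side by side and responded differently, and neither holds the motif. That of HAPLN1 is chr5:83720856-83721105 of GRCh38 on the minus strand, and that of VCAN is chr5:83471494-83471743 of GRCh38 on the plus strand.
HAPLN1: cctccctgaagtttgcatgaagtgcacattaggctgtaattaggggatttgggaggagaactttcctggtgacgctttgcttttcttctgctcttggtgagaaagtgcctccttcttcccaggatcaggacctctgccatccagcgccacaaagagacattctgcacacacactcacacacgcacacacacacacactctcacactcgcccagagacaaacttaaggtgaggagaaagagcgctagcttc
VCAN: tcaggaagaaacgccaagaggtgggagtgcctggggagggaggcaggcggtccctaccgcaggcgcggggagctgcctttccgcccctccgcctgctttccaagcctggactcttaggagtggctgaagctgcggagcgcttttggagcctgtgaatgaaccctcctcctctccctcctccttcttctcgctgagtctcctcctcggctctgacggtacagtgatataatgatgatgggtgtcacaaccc
A match is a description of letters in the window, and binding of NF-Y was not measured in these libraries.

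Total expected counts were 18076979 to 27163976 per library. NFYA itself was at 89.2 to 96.7 CPM (counts scaled to TMM-corrected library size) in the Empty libraries, at 287 to 383 CPM in NF-YAl and at 254 to 264 CPM in NF-YAs, which separates the NF-YA lines from Empty but does not tell the isoforms apart. Of its 2 deposited transcripts, the longer, with 87 nt more, was at 26.8 to 60.4 CPM in the controls, 86.1, 114 and 235 CPM in NF-YAl A, B and D, and 24.1 to 61.5 CPM in NF-YAs. The shorter was at 36.3 to 62.5 CPM in the controls and at 197 to 239 CPM in NF-YAs, but also at 201, 269 and 119 CPM in NF-YAl. The longer thus took 29.7 and 29.5% of NFYA TPM in NF-YAl A and B, against 66.1% in NF-YAl D and 29.7 to 62.1% in Empty. In NF-YAs A, B and C it took 23.0, 9.02 and 22.1%, below every NF-YAl library. This share thus set NF-YAl A and B apart from NF-YAs but not from Empty. In CPM the longer was higher in every NF-YAl library than in any library of the other lines. The labels were used as given. The transgenes are murine and reads were counted on human transcripts, and the part of this in the split was not tested. The 5 epithelial markers summed to 1170 to 1290 CPM in the controls, 744 to 759 CPM in NF-YAl cells and 729 to 833 CPM in NF-YAs cells, with all 5 above 3 counts in each line. They did not move together, since KRT8 was called lower in NF-YAl (log2FC -1.33, adjusted p = 2.5e-06) and CDH1 in NF-YAs (log2FC -1.33, adjusted p = 0.000931), while EPCAM was called higher in both lines (log2FC 2.16 and 1.46, adjusted p = 5.49e-05 and 0.000878). In NF-YAl replicate D the small RNAs RN7SL1, RN7SL2 and RN7SK took 13.0% of the summed TPM (transcript abundance scaled for length), against 26.7 to 40.5% in the other libraries, which raises the TPM of the remaining genes there. Lines were therefore compared on counts, with edgeR's quasi-likelihood test and Benjamini-Hochberg adjustment over all 17108 genes, and TPM served for levels between genes. A gene was called at an adjusted p under 0.01 and a log2 fold change (log2FC) beyond 1 in either direction.

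Per length, on the TPM scale, the 10 genes covered a wide range that was led by the same 4 genes in the same order in each line. HAS3 came first with mean TPM of 350 (Empty), 236 (NF-YAl) and 320 (NF-YAs). SDC1 followed with 94.0, 89.7 and 74.8 TPM, GPC1 with 43.1, 31.5 and 30.7 TPM, and HAS2 with 11.1, 12.2 and 21.4 TPM. Within each line, neighbours among these 4 did not overlap between libraries. HAPLN1 was next in Empty and NF-YAl, with 1.42 and 2.51 TPM, whereas at 0.493 TPM in NF-YAs it overlapped with OGN at 0.520 TPM. The matrix genes VCAN, BGN, DCN, OGN and PRELP stayed at or below a mean of 1.10 TPM in every line. In this low range BGN, PRELP and OGN could not be ordered in Empty, nor PRELP, VCAN and BGN in NF-YAl, nor DCN and BGN in NF-YAs.

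**Figure D1:**
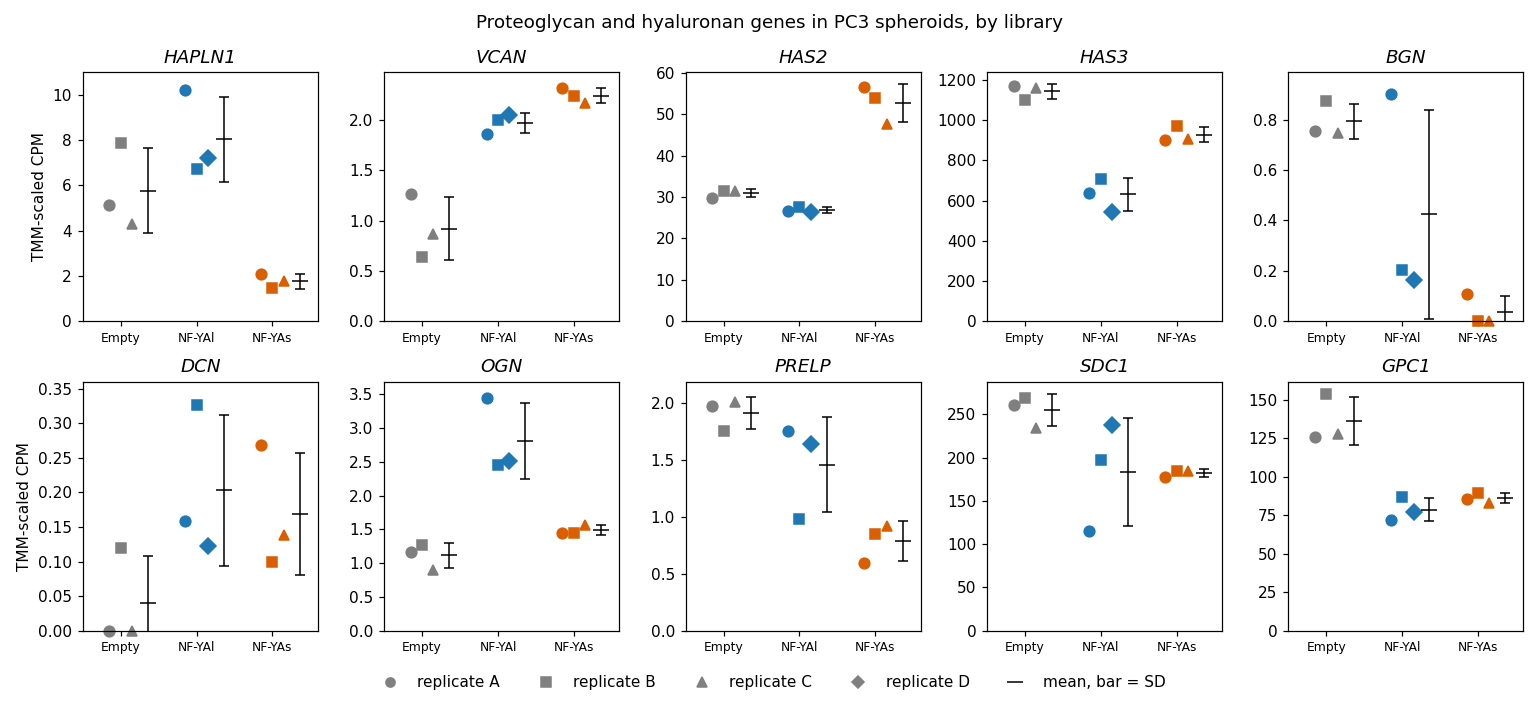
TMM-scaled CPM of the 10 genes in the 9 libraries, 1 panel per gene with its own linear axis from 0; symbols mark replicate letters and black bars the mean with SD (n = 3), cut at 0. HAPLN1 was lowest in NF-YAs, VCAN was higher in both NF-YA lines than in Empty, and HAS2 was highest in NF-YAs.

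Calls among the members differed between comparisons in number and direction. In NF-YAl against Empty, 2 of the 9 tested genes were higher, VCAN and OGN, where 4.76% of all tested genes were, and 0 were lower, where 3.50% were. By DESeq2 none was lower either, while 3 of the 9 were lower at an unadjusted p under 0.05 by edgeR and 3 by DESeq2. In NF-YAs against Empty, 1 was higher, VCAN, against 5.44% of all genes, and 3 were lower, HAPLN1, BGN and PRELP, against 3.90%. Of these, BGN had passed the expression filter through the Empty libraries. In NF-YAl against NF-YAs, 1 was higher, HAPLN1, against 1.74%, and 0 were lower, against 2.86%, with 2 lower at an unadjusted p under 0.05 by edgeR and 2 by DESeq2. These lists are short and 1 gene moves a share widely, so the counts are read gene by gene. In bulk RNA, fewer cells that express a gene and less of its RNA per cell cannot be told apart.

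The limit on fold change left out several abundant members whose libraries lay close together. With the adjusted p under 0.01 as the only criterion, NF-YAl against Empty had 2 higher (10% of all genes) and 2 lower, HAS3 and GPC1 (9.54%). NF-YAs against Empty had 2 higher, VCAN and HAS2 (12.1%), and 4 lower, GPC1 with the 3 above (10.5%). NF-YAl against NF-YAs had 1 higher (4.70%) and 2 lower, HAS2 and HAS3 (6.25%). With limma on log2 TPM, HAS2, HAS3 and GPC1 kept these directions but had an adjusted p of 0.0422 for HAS2 in NF-YAs against Empty and of 0.126 to 0.51 in the other comparisons named. The median log2FC of the 9 genes was -0.40, -0.49 and 0.01 in the 3 comparisons, beside 0.01, 0.00 and 0.02 over all tested genes.

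**Figure D2:**
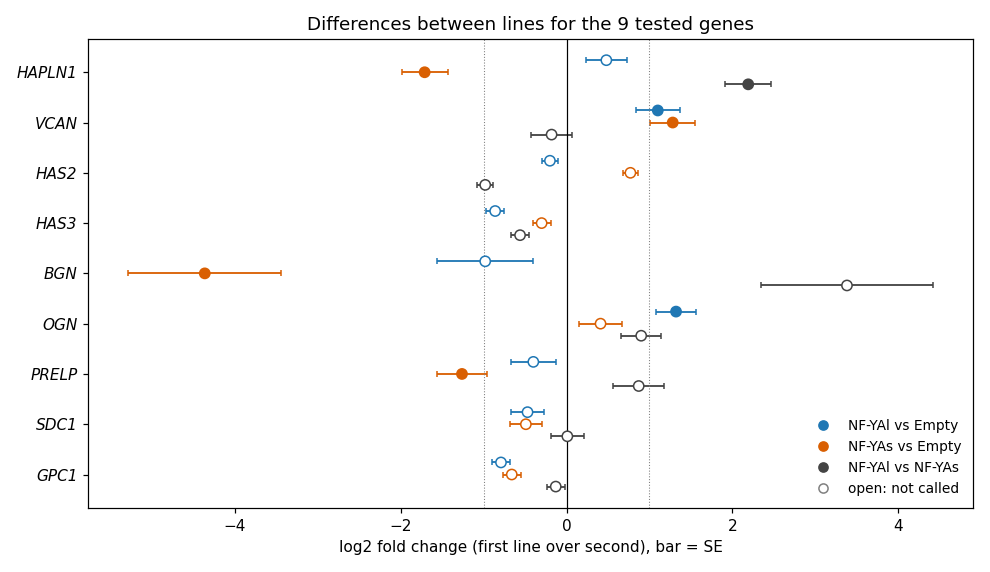
Fitted log2FC of the 9 tested genes with SE in the 3 comparisons between lines; filled points were called and dotted lines mark a log2FC of -1 and 1. HAPLN1 lies at -1.71 in NF-YAs against Empty and at 2.19 in NF-YAl against NF-YAs, and the widest error belongs to BGN.

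HAPLN1, the link protein that locks versican and aggrecan onto hyaluronan, was the 1 member called between the isoforms. It had 122, 198 and 109 expected counts in the Empty libraries A, B and C, 193, 164 and 176 in the NF-YAl libraries A, B and D, and 39, 29 and 38 in the NF-YAs libraries A, B and C. The NF-YAs libraries were the lowest, with no overlap with either other line, whereas Empty and NF-YAl overlapped. Empty averaged 5.76 ± 1.87 CPM, NF-YAl 8.06 ± 1.91 CPM and NF-YAs 1.76 ± 0.329 CPM (SD, n = 3). HAPLN1 was thus 3.26-fold lower in NF-YAs than in the control (log2FC -1.71, SE 0.276, adjusted p = 0.000514). Between the isoforms it was 4.55-fold higher in NF-YAl than in NF-YAs (log2FC 2.19, SE 0.275, adjusted p = 0.000238). Leaving out NF-YAl A or NF-YAl B, the libraries in which the longer NFYA transcript was the lesser part, gave 1.98 (adjusted p = 0.000248) and 2.30 (adjusted p = 0.000749), both called, and the pair was not left out together. The log2FC of 0.48 in NF-YAl against Empty did not pass the test (SE 0.246, adjusted p = 0.160). On log2 TPM with limma, the value in NF-YAs against Empty was -0.94 and was not called (adjusted p = 0.0509).

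The 2 genes whose pattern over the 9 libraries was most like that of HAPLN1 were DSC2, a desmosomal cadherin, and ENTPD2, an enzyme that degrades extracellular nucleotides. Likeness was measured as the root mean square difference in log2 CPM after centring each gene, which was 0.209 for DSC2 and 0.225 for ENTPD2. Across Empty, NF-YAl and NF-YAs, DSC2 averaged 76.1, 99.1 and 24.4 CPM and ENTPD2 averaged 3.01, 5.41 and 0.964 CPM.

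VCAN encodes versican, the large hyaluronan-binding proteoglycan of provisional matrix, and it was scarce in every library. Its expected counts were 30, 16 and 22 in the Empty libraries, 35, 49 and 50 in those of NF-YAl and 43, 45 and 47 in those of NF-YAs. On the CPM scale every NF-YAl and NF-YAs library lay above every Empty library. Empty averaged 0.920 ± 0.315 CPM, NF-YAl 1.97 ± 0.103 CPM and NF-YAs 2.24 ± 0.0752 CPM (SD, n = 3). VCAN rose 2.15-fold in NF-YAl (log2FC 1.10, SE 0.268, adjusted p = 0.00789) and 2.43-fold in NF-YAs (log2FC 1.28, SE 0.268, adjusted p = 0.00284). The isoforms differed by a log2FC of -0.18 (SE 0.252, adjusted p = 0.635). Leaving out any library but Empty A ended the call in NF-YAl, with log2FC from 0.89 to 1.14 and adjusted p from 0.0105 to 0.0362, and an offset for effective length gave 0.86 (adjusted p = 0.0278). In NF-YAs the call ended without Empty B (adjusted p = 0.0135), Empty C (0.0159), or NF-YAs A (0.0114), B (0.0111) or C (0.0109).

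Reads of VCAN were spread over 4 deposited transcripts, which differ in the exons that carry the chondroitin sulphate chains. The longest, V0, has 12416 nt, V1 is 2961 nt shorter, V2 is 5262 nt shorter and V3 lacks both stretches, 8223 nt in all. Estimated counts on V3 were above 0 only in Empty B (2.75) and NF-YAs B (1.87), and those on V2 only in Empty A (6.85), NF-YAl A (4.24) and NF-YAs C (5.49). The share of V0 ran from 21.14 to 44.97% in the controls, from 44.63 to 99.23% in NF-YAl cells and from 7.44 to 59.51% in NF-YAs cells. With so few reads these shares overlapped between all lines and could not rank the isoforms of versican. The antisense gene VCAN-AS1 had at most 1 count in a library.

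VCAN and HAPLN1 are neighbours on chromosome 5 of GRCh37, at 82767437 to 82878122 on the plus strand and at 82933624 to 83016674 on the minus strand, with 55501 bases between them. The protein-coding genes on either side are XRCC4, a DNA repair gene, and EDIL3, which encodes a secreted integrin ligand of the extracellular matrix. EDIL3 rose 2.52-fold in NF-YAl against Empty (log2FC 1.33, SE 0.162, adjusted p = 7.85e-05) and was 1.65-fold higher in NF-YAs (log2FC 0.72, SE 0.160, adjusted p = 0.00408), under the fold limit of a call. XRCC4 had a log2FC of -0.42 in NF-YAl (adjusted p = 0.133) and -0.40 in NF-YAs (adjusted p = 0.148). Within this stretch HAPLN1 fell in NF-YAs while VCAN rose.

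HAS3, a synthase of the plasma membrane that makes hyaluronan, was the most abundant of the 10 genes and was lower in NF-YAl. It had 27835, 27622 and 29406 counts in the Empty libraries, 12024, 17328 and 13250 in those of NF-YAl and 16773, 19531 and 19718 in those of NF-YAs. In CPM the 3 lines did not overlap. Empty was highest at 1140 ± 37.8, NF-YAs was at 928 ± 38.2 and NF-YAl was lowest at 630 ± 82.4 (SD, n = 3). Relative to Empty, HAS3 was 1.81-fold lower in NF-YAl (log2FC -0.86, SE 0.111, adjusted p = 0.000123) and relative to NF-YAs it was 1.47-fold lower in NF-YAl (log2FC -0.56, SE 0.110, adjusted p = 0.00388), both under the fold limit. The log2FC of -0.30 in NF-YAs against Empty did not pass (SE 0.110, adjusted p = 0.0523), but its adjusted p was 0.00672 with only the 2 groups compared. The difference between the isoforms lost the adjusted p under 0.01 with only the 2 groups compared (0.0145) and without NF-YAs A (0.0136), B (0.0245) or C (0.0184).

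HAS3 lies on chromosome 16 of GRCh37, at 69139556 to 69152622 on the plus strand, and CHTF8 overlaps it on the opposite strand. CHTF8 had a log2FC of -0.51 in NF-YAl against Empty (adjusted p = 0.00319), at 121 CPM in Empty against 1140 CPM of HAS3, and how far shared reads enter either value was not tested. Among its 3 transcripts, of 4288, 4220 and 1194 nt, the longest took 44.9 ± 6.47% of HAS3 TPM in Empty, with 44.8 ± 1.49% in NF-YAl cells and 51.2 ± 4.53% in NF-YAs cells (SD, n = 3), and the shortest between 13.0 and 14.8% on average. Of 24 comparisons of transcript shares in HAS3, OGN and SDC1, 4 reached an exact permutation p of 0.1 (two-sided, n = 3 against 3), the smallest this design allows, and the smallest adjusted p was 0.6.

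HAS2, the synthase known for long hyaluronan chains, was higher in NF-YAs than in either other line. Its counts were 708, 791 and 801 in the Empty libraries, 499, 675 and 641 in those of NF-YAl and 1051, 1083 and 1036 in those of NF-YAs. The NF-YAs libraries stood apart above all others, and those of NF-YAl lay just below those of Empty in CPM. Empty averaged 30.9 ± 1.03 CPM, NF-YAl 26.8 ± 0.699 CPM and NF-YAs 52.7 ± 4.54 CPM (SD, n = 3). HAS2 was 1.71-fold higher in NF-YAs than in Empty (log2FC 0.77, SE 0.0946, adjusted p = 7.08e-05) and 1.97-fold higher in NF-YAs than in NF-YAl (log2FC -0.98 for NF-YAl against NF-YAs, SE 0.0954, adjusted p = 4.55e-05), both under the fold limit. Without NF-YAs C the latter was -1.04 and was called (adjusted p = 0.000252). The log2FC of -0.20 in NF-YAl against Empty did not pass (adjusted p = 0.123), and on log2 TPM it was 0.09.

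HAS2 lies on chromosome 8 of GRCh37, at 122624356 to 122653680 on the minus strand, and the antisense gene HAS2-AS1 overlaps it. With means of 2.90 CPM (Empty), 2.12 CPM (NF-YAl) and 4.85 CPM (NF-YAs), HAS2-AS1 had an order shared with HAS2. HAS2-AS1 was called lower in NF-YAl than in NF-YAs (log2FC -1.19, SE 0.222, adjusted p = 0.00281). The kit kept strand, but the strand setting of the counting is not given in the sources used here, so reads of the overlap cannot be told apart.

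HAS1, the remaining synthase, reached at most 0.710 TPM in any library, so the pool of synthase transcripts was almost wholly HAS3 with a minor part of HAS2. The share of HAS2 in the summed TPM was 2.92, 3.21 and 3.15% in the Empty libraries, 4.76, 4.39 and 5.36% in those of NF-YAl and 6.87, 6.09 and 5.77% in those of NF-YAs. No libraries overlapped between lines, with an order from Empty over NF-YAl to NF-YAs. Means were 3.09 ± 0.153, 4.84 ± 0.490 and 6.24 ± 0.566% (SD, n = 3), and the two-sided exact permutation p was 0.1 in each of the 3 comparisons, the smallest this design allows. This share was chosen after the values of both genes had been seen.

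**Figure D3:**
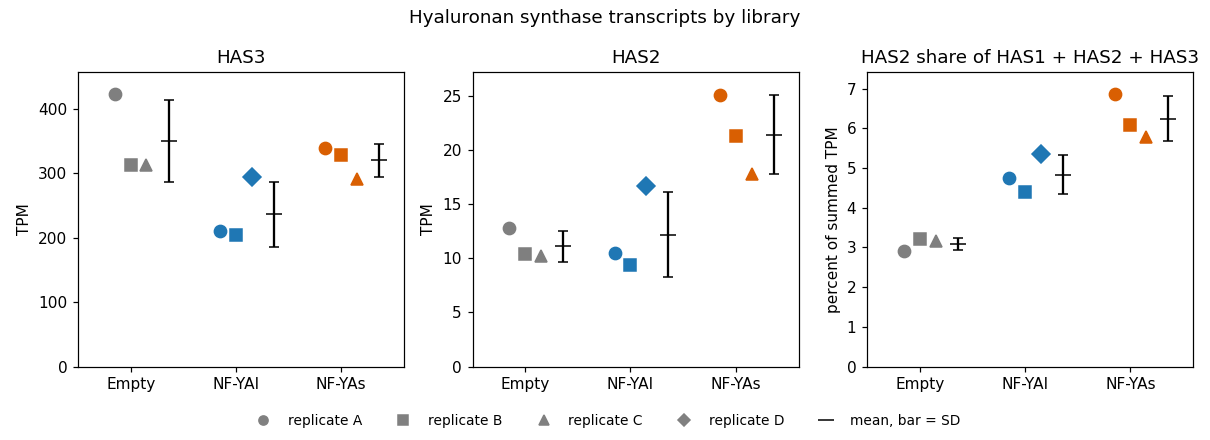
Deposited TPM of HAS3 and HAS2 and the percent of summed HAS1, HAS2 and HAS3 TPM that HAS2 took, in each library; black bars are means with SD (n = 3) and axes start at 0. The share of HAS2 lay between 2.92 and 3.21% in Empty and between 5.77 and 6.87% in NF-YAs, and NF-YAl D stood above its replicates in TPM of both genes.

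BGN encodes biglycan, a small leucine-rich proteoglycan of collagenous matrix, and it was close to absent in NF-YAs. It had 18, 22 and 19 counts in the Empty libraries, 17, 5 and 4 in those of NF-YAl and 2, 0 and 0 in those of NF-YAs. NF-YAs lay below both other lines, while NF-YAl A, at 0.902 CPM, lay above every Empty library and NF-YAl B and D below. Summed over libraries there were 59 counts in Empty against 2 in NF-YAs, a ratio of 23.9 after scaling with a 95% counting interval of 6.34 to 202. BGN fell in NF-YAs against Empty (log2FC -4.36, SE 0.921, adjusted p = 0.00301), a fitted value that depends on the prior count. It passed the expression filter through the Empty libraries, so its entry to this test depended on the line where it was high. The call ended without Empty B (adjusted p = 0.0108), NF-YAs B (0.0163) or NF-YAs C (0.0176). Between the isoforms the log2FC was 3.38 (SE 1.04, adjusted p = 0.0346), and in NF-YAl against Empty -0.98 (SE 0.581, adjusted p = 0.225). These values rest on single libraries. Without NF-YAs A the log2FC of NF-YAs against Empty was -7.20 (adjusted p = 0.00592) and that between the isoforms 6.22 (adjusted p = 0.0346), and in NF-YAl against Empty it was -2.07 without NF-YAl A (adjusted p = 0.0131), -0.64 without B (adjusted p = 0.499) and -0.59 without D (adjusted p = 0.453). HAUS7, which overlaps BGN (GRCh37 chromosome X, 152760438 to 152775004, plus strand) from the opposite strand, was at 18.5 CPM in Empty and 11.4 in NF-YAs, with a log2FC of -0.70 (adjusted p = 0.00145).

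DCN, for decorin, the collagen-binding relative of biglycan, did not pass the filter and was not tested. Counts were 0, 3 and 0 in the Empty libraries, 3, 8 and 3 in those of NF-YAl and 5, 2 and 3 in those of NF-YAs. DCN lies at 91534261 to 91576994 on the minus strand of chromosome 12 of GRCh37. Summed counts were 3 (Empty), 14 (NF-YAl) and 10 (NF-YAs). After scaling, the ratio of Empty to NF-YAl was 0.195, with a 95% counting interval of 0.0359 to 0.698, and that of Empty to NF-YAs was 0.243 (0.043 to 0.945). These intervals cover counting error and not the spread between libraries. In CPM every NF-YAl library lay above every Empty library, and NF-YAs overlapped with both.

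OGN encodes osteoglycin, also called mimecan, of the same family. It had 28, 32 and 23 counts in the Empty libraries, 65, 60 and 61 in those of NF-YAl and 27, 29 and 34 in those of NF-YAs. All NF-YAl libraries exceeded those of the other lines. OGN rose 2.49-fold in NF-YAl against Empty, from 1.12 ± 0.190 to 2.80 ± 0.559 CPM (SD, n = 3, log2FC 1.32, SE 0.244, adjusted p = 0.00148). In NF-YAs, at 1.49 ± 0.0683 CPM, the log2FC against Empty was 0.41 (adjusted p = 0.234), and the difference between the isoforms, 0.90, did not pass (SE 0.242, adjusted p = 0.0192). Without Empty C the call in NF-YAl ended (log2FC 1.18, adjusted p = 0.0111), as it did with limma on log2 TPM (0.90, adjusted p = 0.0392).

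On chromosome 9 of GRCh37, OGN (95145550 to 95166978) is followed on the minus strand by OMD, ASPN and ECM2, which encode osteomodulin, asporin and a further leucine-rich matrix protein, all within CENPP on the plus strand. These genes were described because they adjoin OGN, a choice made after the values of OGN were seen. ECM2 rose in NF-YAl against Empty, from 1.06 ± 0.50 to 3.28 ± 0.866 CPM (SD, n = 3, log2FC 1.63, SE 0.320, adjusted p = 0.00221). OMD had a log2FC of 1.23 (adjusted p = 0.0145) and ASPN of 1.14 (adjusted p = 0.0543), neither past the threshold. CENPP, at 4.63 CPM in Empty, had a log2FC of 0.17 (adjusted p = 0.533).

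PRELP, a leucine-rich proteoglycan that links basement membranes to collagen, was the member with the CCAAT match printed above, and its GRCh37 position is chromosome 1, 203444934 to 203460480, plus strand. Its rounded counts were 47, 44 and 51 in the Empty libraries, 33, 24 and 40 in those of NF-YAl and 11, 17 and 20 in those of NF-YAs. The NF-YAs libraries were lowest without overlap, while those of NF-YAl and Empty met at 1.75 CPM. PRELP fell in NF-YAs against Empty from 1.91 ± 0.140 to 0.787 ± 0.172 CPM (SD, n = 3, log2FC -1.26, SE 0.298, adjusted p = 0.00575). In NF-YAl the log2FC was -0.40 (adjusted p = 0.305), and between the isoforms it was 0.87 (adjusted p = 0.0591). The call in NF-YAs ended whichever of the 6 libraries compared was left out, with log2FC from -1.40 to -1.10 and adjusted p from 0.0134 to 0.0296.

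Fibroblast markers also moved between the lines. Summed over COL1A2, COL3A1, PDGFRB, FAP, THY1 and ACTA2 they reached 26.5 to 71.8 CPM in the controls, 77.2 to 263 CPM in NF-YAl cells and 101 to 151 CPM in NF-YAs cells, nearly all of it COL3A1. Of these 6 genes 5 were above 3 counts in some library of each line, and FAP was not. COL3A1, for a fibrillar collagen, rose in NF-YAl (log2FC 2.04, adjusted p = 0.00368), and COL1A2, for another, rose in NF-YAs (log2FC 2.78, adjusted p = 0.00101) at a mean of 1.23 CPM. COL3A1 in NF-YAs was not called (log2FC 1.59, adjusted p = 0.0127), nor were ACTA2 and PDGFRB in either line. For these spheroids the paper names PC3 cells and no other cell type. The part of these markers in the results on VCAN and OGN was not tested. Endothelial markers summed to 14.8 to 16.2 CPM in the controls, 7.48 to 8.43 in NF-YAl and 9.85 to 10.7 in NF-YAs, all 4 above 3 counts somewhere. They did not move together. VWF was called lower in NF-YAl (log2FC -3.23, adjusted p = 1.92e-06) but had -0.14 in NF-YAs (adjusted p = 0.604). PECAM1 was called lower in NF-YAs (log2FC -1.73, adjusted p = 4.8e-05) but had -0.17 in NF-YAl (adjusted p = 0.515). TIE1 was not called and CDH5 was not tested. Haematopoietic markers summed to 54.3 to 71.7, 20.6 to 36.6 and 28.4 to 36.6 CPM in the same order, mostly CD68, with CD3E never above 3 counts. Their part in the lower values of BGN and PRELP was not tested.

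SDC1, or syndecan-1, is the main heparan sulphate proteoglycan on the surface of epithelial cells, and its gene lies at 20400558 to 20425194 on the minus strand of chromosome 2 of GRCh37. Counts were 6214, 6770 and 5952 in the Empty libraries, 2172, 4825 and 5802 in those of NF-YAl and 3280, 3707 and 4005 in those of NF-YAs. NF-YAl A was the lowest of all libraries at 115 CPM, while NF-YAl D, at 238 CPM, lay within the range of Empty. Empty averaged 255 ± 18.1 CPM, NF-YAl 184 ± 62.7 CPM and NF-YAs 182 ± 4.53 CPM (SD, n = 3). SDC1 did not pass in NF-YAl (log2FC -0.47, SE 0.195, adjusted p = 0.0848) or in NF-YAs (log2FC -0.49, SE 0.195, adjusted p = 0.0715), although every NF-YAs library lay below every Empty library. The adjusted p fell under 0.01 in NF-YAl with the replicate letter as a block (log2FC -0.76, adjusted p = 0.00261) and without NF-YAl D (-0.70, adjusted p = 0.00605), while without NF-YAl A the log2FC was -0.22 (adjusted p = 0.121). It did so in NF-YAs with only the 2 groups compared (adjusted p = 0.000115) and without NF-YAl A (adjusted p = 0.000986). Between the isoforms the log2FC was 0.01 (SE 0.195, adjusted p = 0.965), and its sign turned when NF-YAl B (-0.04), NF-YAl D (-0.22) or NF-YAs A (-0.01) was left out.

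GPC1, for glypican-1, a heparan sulphate proteoglycan anchored to the membrane by a lipid, was lower in both NF-YA lines. It lies at 241375080 to 241407493 on the plus strand of the same chromosome. It had 3005, 3884 and 3252 counts in the Empty libraries, 1352, 2119 and 1881 in those of NF-YAl and 1590, 1803 and 1800 in those of NF-YAs. Both NF-YA lines lay below Empty without overlap and overlapped with each other. Empty averaged 136 ± 15.8 CPM, NF-YAl 78.5 ± 7.55 CPM and NF-YAs 86.1 ± 3.41 CPM (SD, n = 3). Compared with Empty, GPC1 was 1.73-fold lower in NF-YAl (log2FC -0.79, SE 0.108, adjusted p = 0.000179) and 1.58-fold lower in NF-YAs (log2FC -0.66, SE 0.108, adjusted p = 0.000538), under the fold limit. The log2FC of -0.13 between the isoforms did not pass (SE 0.108, adjusted p = 0.403).

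The other genes of these pathways, 106 in 8 lists, gave 76 that were tested. Of these 76, 11 were called higher and 3 lower in NF-YAl against Empty (18.4% in all), where 4.76 and 3.50% of all tested genes were. In NF-YAs against Empty 10 were higher and 5 lower (19.7%), where 5.44 and 3.90% were. In NF-YAl against NF-YAs 1 was higher and 4 lower (6.58%), where 1.74 and 2.86% were. The median log2FC of the 76 was 0.00, 0.06 and 0.02. The lists were chosen with earlier results known, and no set test was run. Some genes named below averaged under 5 CPM or were not called, and these were named after their values were seen.

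Of the surface and basement membrane proteoglycans with heparan sulphate, 11 genes beside SDC1 and GPC1 were tested. In NF-YAl 2 were called higher and 1 lower (27.3%), beside 4.76 and 3.50% of all tested genes. In NF-YAs 3 were higher and 2 lower (45.5%), beside 5.44 and 3.90%. In a list this short 1 gene moves a share widely. SDC2, syndecan-2, rose from a control mean of 4.03 ± 0.747 CPM to 25.7 ± 2.79 CPM in NF-YAl (log2FC 2.67, SE 0.164, adjusted p = 7.42e-07) and to 13.3 ± 1.52 in NF-YAs (log2FC 1.73, SE 0.163, adjusted p = 1.14e-05, SD, n = 3). GPC6 rose in NF-YAs (log2FC 1.18, adjusted p = 5.83e-05) and GPC4 fell there (log2FC -1.10, adjusted p = 0.000158), so the glypicans did not move together. HSPG2, for perlecan of basement membranes, fell from a control mean of 3110 ± 377 CPM to 1400 ± 62.0 CPM in NF-YAs (SD, n = 3, log2FC -1.16, adjusted p = 0.000320). TGFBR3, for betaglycan, fell in NF-YAl (log2FC -1.26, adjusted p = 6.44e-05). GPC5 was called higher in both lines, but no Empty library had more than 2 counts of it. SDC4, the syndecan of focal adhesions, resembled GPC1 in its values, with log2FC of -0.69 in NF-YAl (adjusted p = 0.000772) and -0.66 in NF-YAs (adjusted p = 0.000954).

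In the hyaluronan list, which also holds enzymes that degrade it and its receptors, 10 genes beside HAS2 and HAS3 were tested. The calls against Empty were CEMIP and HYAL1, both lower. For NF-YAl this was 1 of the 10 genes, where 3.50% of all tested genes were lower. For NF-YAs it was 2 of the 10, where 3.90% were. With so few genes 1 call moves a share widely. CEMIP, which depolymerises hyaluronan, fell in NF-YAl (log2FC -1.04, SE 0.208, adjusted p = 0.00241) and in NF-YAs (log2FC -1.26, SE 0.210, adjusted p = 0.000624), from 102 CPM in Empty to 49.6 and 42.5. The hyaluronidase HYAL1 fell in NF-YAs (log2FC -1.44, adjusted p = 0.00372). CD44, the main hyaluronan receptor, averaged 528 CPM in the controls, 295 CPM in NF-YAl cells and 353 CPM in NF-YAs cells, with log2FC of -0.84 (adjusted p = 3.23e-05) and -0.58 (adjusted p = 0.000370), under the fold limit. UGDH, which makes the UDP-glucuronate that all these chains need, had a log2FC of -0.73 in NF-YAs (adjusted p = 0.000999) and -0.20 in NF-YAl (adjusted p = 0.271).

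Among other proteoglycans 7 genes were tested, of which 3 were called higher and 1 lower in each line against Empty. Each time this was 57.1% of the 7, and 1 gene moves such a share widely. Of all tested genes 4.76% were higher and 3.50% lower for NF-YAl, and 5.44% were higher and 3.90% lower for NF-YAs. ESM1, or endocan, rose from a control mean of 11.9 ± 0.638 CPM to 125 ± 14.1 CPM in NF-YAs (log2FC 3.40, SE 0.317, adjusted p = 1.04e-05) and to 41.4 ± 22.0 CPM in NF-YAl (log2FC 1.81, SE 0.305, adjusted p = 0.000784, SD, n = 3). CSPG4, the membrane proteoglycan NG2, rose in NF-YAs (log2FC 2.34, adjusted p = 4.55e-07) and in NF-YAl (log2FC 1.13, adjusted p = 7.09e-05). Of the 7 genes 3 were called lower in NF-YAl than in NF-YAs, with log2FC of -1.59 for ESM1 (adjusted p = 0.00243), -1.22 for CSPG4 (adjusted p = 7.94e-05) and -1.62 for SPOCK1 (adjusted p = 0.000168), and CSPG5 was called higher (log2FC 1.26, adjusted p = 0.00146). These calls made 57.1% of the tested list, where 2.86% of all tested genes were lower and 1.74% higher. SPOCK3, a testican, rose in both lines (log2FC 1.42 in NF-YAl and 1.66 in NF-YAs, adjusted p = 0.00384 and 0.00122). Its relative SPOCK1 fell in NF-YAl (log2FC -1.28, adjusted p = 0.000342), and CSPG5 fell in NF-YAs (log2FC -1.28, adjusted p = 0.000583).

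Of 16 tested enzymes of the linker and of chain polymerisation 1 was called higher in each line, CSGALNACT1, which starts chondroitin chains, a share of 6.25% beside the 4.76 and 5.44% of all genes. It rose from a control mean of 2.71 ± 0.595 CPM to 17.0 ± 3.89 CPM in NF-YAl (log2FC 2.64, adjusted p = 3.51e-06) and 12.0 ± 0.878 CPM in NF-YAs (SD, n = 3, log2FC 2.15, adjusted p = 1.21e-05). Of 9 enzymes that modify chondroitin and dermatan sulphate 1 was called higher in each line (11.1%, beside 4.76 and 5.44% of all genes). It was DSE, the epimerase that turns chondroitin into dermatan sulphate, which rose in NF-YAl (log2FC 1.63, adjusted p = 3.05e-06) and NF-YAs (log2FC 1.57, adjusted p = 3.33e-06). The other epimerase, DSEL, was more abundant in CPM, at 131 in Empty, and had log2FC of -0.72 in NF-YAl (adjusted p = 0.00129) and -0.74 in NF-YAs (adjusted p = 0.000973), under the fold limit. Of 15 enzymes that modify heparan sulphate 3 were called higher in NF-YAl, HS6ST2, HS6ST3 and SULF1, beside 4.76% of all genes. For NF-YAs 2 were called higher, HS6ST2 and HS6ST3, beside 5.44% of all genes. No Empty library had more than 3 counts of HS6ST3 or more than 5 of SULF1, and SULF1 averaged 0.792 CPM in NF-YAl. HPSE, the heparanase that cuts these chains, was lower in NF-YAl than in NF-YAs (log2FC -1.25, adjusted p = 0.000952).

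**Figure D4:**
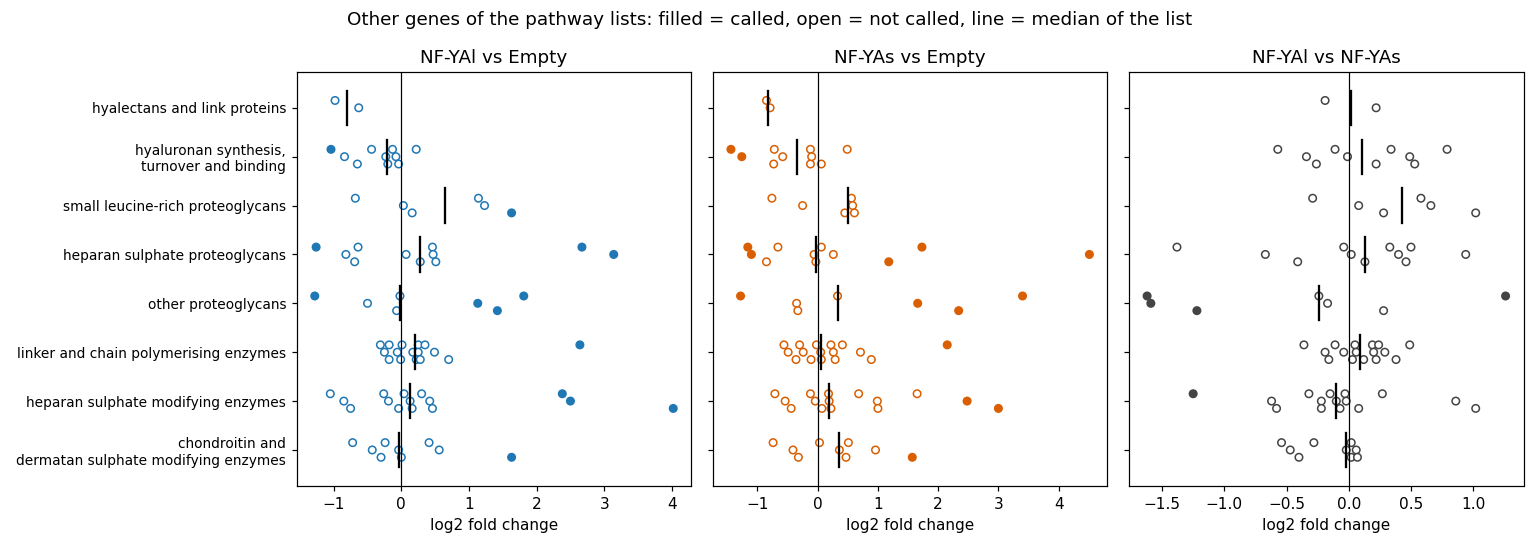
Fitted log2FC of the 76 tested genes of the 8 pathway lists other than the members, 1 point per gene in each comparison; filled points were called and vertical lines are the medians of the lists. In NF-YAs against Empty the 11 heparan sulphate proteoglycans had a median of -0.03 with 3 called higher and 2 lower (5.44 and 3.90% of all genes), and the farthest point is GPC5, with at most 2 counts in an Empty library.

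Among hyalectans and link proteins beside VCAN and HAPLN1, only BCAN and HAPLN3 had enough reads for a test. HAPLN3, a paralog of HAPLN1, had a log2FC of -0.98 in NF-YAl (adjusted p = 0.0325) and -0.79 in NF-YAs (adjusted p = 0.0685), and BCAN -0.63 and -0.85 (adjusted p = 0.170 and 0.0688), so neither was called. Of the small leucine-rich family, 6 genes beside the members were tested, and ECM2 in NF-YAl was the 1 call (16.7%, beside 4.76% of all genes higher). The medians of these 6 were 0.65 in NF-YAl and 0.50 in NF-YAs, beside 0.01 and 0.00 over all tested genes.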

How the data were processed

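Total RNA of pooled PC3 MTSs was sequenced from stranded libraries, 3 per line. The authors ran RSEM with bowtie2 against RefSeq transcripts (GRCh37) and deposited expected counts and TPM of genes and transcripts, with each transcript's percent of its gene's TPM. The deposited expected counts are RSEM's estimates, with reads of several transcripts shared out, and are not normalized. The deposited TPM are corrected for effective length and scaled to the same total. The transgenes are murine, and reads were counted on human transcripts.

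Gene-level expected counts were rounded and fitted with edgeR 4.0.16 in R 4.3.3 (filterByExpr, TMM, all 9 libraries, quasi-likelihood F test). SE was |log2FC| over the square root of F. P-values measure the spread between these libraries. A gene was at the floor with at most 3 counts in each library of a line, and counting intervals (95%, exact binomial) cover counting error only. Alternatives used DESeq2 1.42.0 and limma 3.58.1 (log2 of TPM + 0.5, mean TPM of at least 0.5). The edgeR procedure was tested on simulated data for NF-YAl against Empty with 200 of 17108 genes changed by a log2FC of 2, and 192 were recovered. The changed genes were drawn from those with a mean above 1 CPM. The simulation thus did not cover smaller changes or genes as scarce as BGN. Replicate libraries differed by more than counting error (chi-square per gene 6.39 to 92.7), most in the pairs of NF-YAl D with NF-YAl A (92.7) and B (75.3). Figures were drawn with matplotlib 3.10.9.

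The members, gene lists and tests were chosen with earlier results of these data known. Named were all members, NFYA, called list genes with at least 5 CPM in the higher line and no overlap (up to 4 per list and comparison), the 2 genes most like a called member of at least 5 CPM, and genes beside adjoining members. Positions came from GENCODE for GRCh37 and promoter windows from RefSeq for GRCh38.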

Additional observations from a re-analysis of the deposited data

Results flagged for a closer look

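For 3 genes the changes of NF-YAl and NF-YAs against the shared Empty libraries differed by a test of the difference itself. That test is the contrast of NF-YAl with NF-YAs (edgeR, quasi-likelihood), here at an adjusted p under 0.01 without the fold limit. By this criterion 4.70% of all tested genes were higher and 6.25% lower in NF-YAl than in NF-YAs. With 1 transduced line per construct, the contrast cannot tell isoform from line. The difference was 2.19 on the log2 scale for HAPLN1 (SE 0.275, adjusted p = 0.000238), from 0.48 in NF-YAl and -1.71 in NF-YAs. For HAS2 it was -0.98 (SE 0.0954, adjusted p = 4.55e-05), from -0.20 and 0.77, and for HAS3 it was -0.56 (SE 0.110, adjusted p = 0.00388), from -0.86 and -0.30. HAS2 and HAS3 were under the fold limit and not called. HAS3 lost the adjusted p under 0.01 with only the 2 groups compared (0.0145) and without NF-YAs A (0.0136), B (0.0245) or C (0.0184). No formal test for outlying libraries was run in groups of 3, but each library was left out in turn.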

How the results depend on the processing

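The 27 log2FC of the members were set against 500 alternatives in all, some of which moved only a threshold of the call. Of these, 459 kept direction and side of the threshold, 28 lost a call, 8 gained one and 5 turned sign. Most of the 27 were not called and had no call to lose. In NF-YAl against Empty VCAN lost its call in 11 of 18 and OGN in 2 of 19. In NF-YAs against Empty the losses were 5 of 18 for VCAN, 6 of 18 for PRELP, 3 of 17 for BGN and 1 of 19 for HAPLN1. The counts of members called higher in NF-YAl against Empty were 2 in the fit reported, 1 with only the 2 groups compared, 1 with the effective length offset and 0 with limma on log2 TPM. That limma fit tested 6 members and also gave 0 higher and 0 lower in NF-YAs, where 2 higher in NF-YAl and 1 in each direction in NF-YAs had an unadjusted p under 0.05 and DESeq2 called 2, 1 and 3. Among list genes limma gave 7 higher and 0 lower in NF-YAl (3 lower at an unadjusted p under 0.05, 3 called by DESeq2), 0 lower in NF-YAs (5 at an unadjusted p under 0.05, 5 called by DESeq2), and 0 higher and 1 lower in NF-YAl against NF-YAs (6 higher at an unadjusted p under 0.05, 1 called by DESeq2). Without the limit on log2FC, 2 members were lower in NF-YAl against Empty, 2 higher in NF-YAs against Empty and 2 lower in NF-YAl against NF-YAs, and 9 list genes were lower in NF-YAl, 17 higher and 12 lower in NF-YAs, and 2 higher between the isoforms. At an adjusted p under 0.05, 2 members and 3 list genes were higher in NF-YAl than in NF-YAs. HAS2 in NF-YAl against Empty turned to 0.09 with limma, on a scale whose median over all genes was 0.27.

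With 1 library left out, members called higher ranged from 0 to 2 in NF-YAl and from 0 to 1 in NF-YAs against Empty, members lower from 1 to 3 in NF-YAs, and members lower in NF-YAl against NF-YAs from 0 to 1. List genes higher in NF-YAl ranged from 7 to 11 and between the isoforms from 0 to 2, and transcript shares without overlap from 4 to 7. SDC1 between the isoforms ranged from -0.22 to 0.26. HAPLN1 kept its call in NF-YAl against NF-YAs under all 19 alternatives, with log2FC from 1.57 to 2.32.

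With the replicate letter as a block (replicate block), 1 member was called higher in NF-YAl against Empty, VCAN being lost (log2FC 1.06, adjusted p = 0.0233), SDC1 between the isoforms turned to -0.28 and in NF-YAl against Empty came to -0.76 (adjusted p = 0.00261, under the fold limit), and list genes came to 5 lower in NF-YAl and 2 higher in NF-YAl against NF-YAs. The labels do not say that a letter marks a shared batch, D has no partner, and residual correlations of same-lettered pairs ran from -0.0652 to 0.253. Counts of 0 to 51 limit VCAN, BGN, DCN and PRELP, and OGN had at most 65. The cause of these changes was not tested.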
